A study of Mus musculus with 4 samples.

Results

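This report describes 41 genes that interferons induce, measured by microarray in mouse CD4+ T cells, and asks how their levels differed among freshly isolated and transduced regulatory T cells (Treg). They were chosen by name and were split by role into 30 antiviral effectors and sensors, 7 GTPases and 4 transcription factors. Of the 41, 40 had at least 1 probe on the array, among 27597 named genes in all, and Xaf1 had none. These 40 genes held 65 probes, 18 genes had more than 1, and the brightest probe over the 4 arrays stood for each gene.

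Each of the 4 groups was 1 array. All cells came from the spleen and lymph nodes of Balb/C mice. Naive T cells were sorted as CD4+CD25-CD62Lhi, and natural Treg as CD4+CD25+, and neither was transduced. The other Treg samples carried a lentivirus with a GFP reporter and a short hairpin RNA, directed at Eos (si-Eos) or at Renilla luciferase (si-RL, the control), and were sorted for GFP after 60 h of culture with human IL-2. Eos, encoded by Ikzf4, is a zinc finger factor of the Ikaros family that works with Foxp3, the factor that defines Treg. Transduction and the 60 h of culture came together in these libraries, so the 2 cannot be told apart. Ages and numbers of mice per sample were not given, and the labels name no CD62L gate for Treg.

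Interferons are secreted proteins that cells release on infection. Type I interferons signal through the receptor chains Ifnar1 and Ifnar2 and the kinases Jak1 and Tyk2 to a complex that includes Stat2 and Irf9 and binds the interferon-stimulated response element (ISRE) in promoters. Interferon-γ signals through Ifngr1 and Ifngr2, and many genes that it induces carry the gamma-activated site (GAS). T cells carry both receptors, and the induced genes include RNA sensors, enzymes that block viral replication, GTPases that attack the vacuoles of intracellular parasites, and transcription factors that extend the response.

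Processed signals are fluorescence on a linear scale after background subtraction, and each group of 4 values runs in the order naive T, Treg, the si-Eos-labelled library and the si-RL-labelled library. Differences are log2 values, negative where the first-named sample is lower, after each array was scaled to its own 75th percentile of signal, which was 303, 392, 320.1 and 262, so a ratio of raw signals differs from the fold given. A gene counts as measured where both arrays of a comparison detected its probe well above background, and ± is the scanner software's error estimate for the pair of spots, which leaves out any spread between cultures or mice. There were no replicates, so no test was possible and no p-value is given, and genes are counted where 2 arrays differ by at least 2-fold.

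Between 64.0% and 68.3% of the 41174 probes were well above background. The gene that the si-Eos hairpin targets went against the labels: Ikzf4 gave signals of 192, 363, 249 and 107, and was higher in the si-Eos-labelled library than in the si-RL-labelled library by 0.93 ± 0.21. Foxp3 gave 64.4, 1778, 2644 and 110.1, so the si-RL-labelled library was close to naive T cells in this gene. The names of the transduced libraries are therefore used only as labels, and if they were exchanged every sign between them would turn.

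The interferon-stimulated genes were well represented on every array. Of the 40 on the array, the naive T array detected 39 well above background, the Treg array 38, and the si-Eos-labelled and si-RL-labelled arrays 37 and 35. There were 35 above background on all 4 arrays, and Oas1g, an oligoadenylate synthetase, on none, with signals between 2.07 and 2.87. Of the 39 detected genes, the scaled level was highest in naive T cells for 26 and in Treg for 7, both of them fresh samples. It was highest in the si-Eos-labelled library for 5 and in the si-RL-labelled library for 1. The lowest level lay in the si-RL-labelled library for 20 genes, in the si-Eos-labelled library for 17, in naive T cells for 2 and in Treg for 0. The same counts were not made over all genes, so no share stands beside them and they only describe these 39. They also hold for the main scaling alone. Scaling to spike-in controls moved the members' median log2 difference of Treg against naive T from -0.34 to -0.07, and the order of arrays was not recounted under it.

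**Figure D1:**
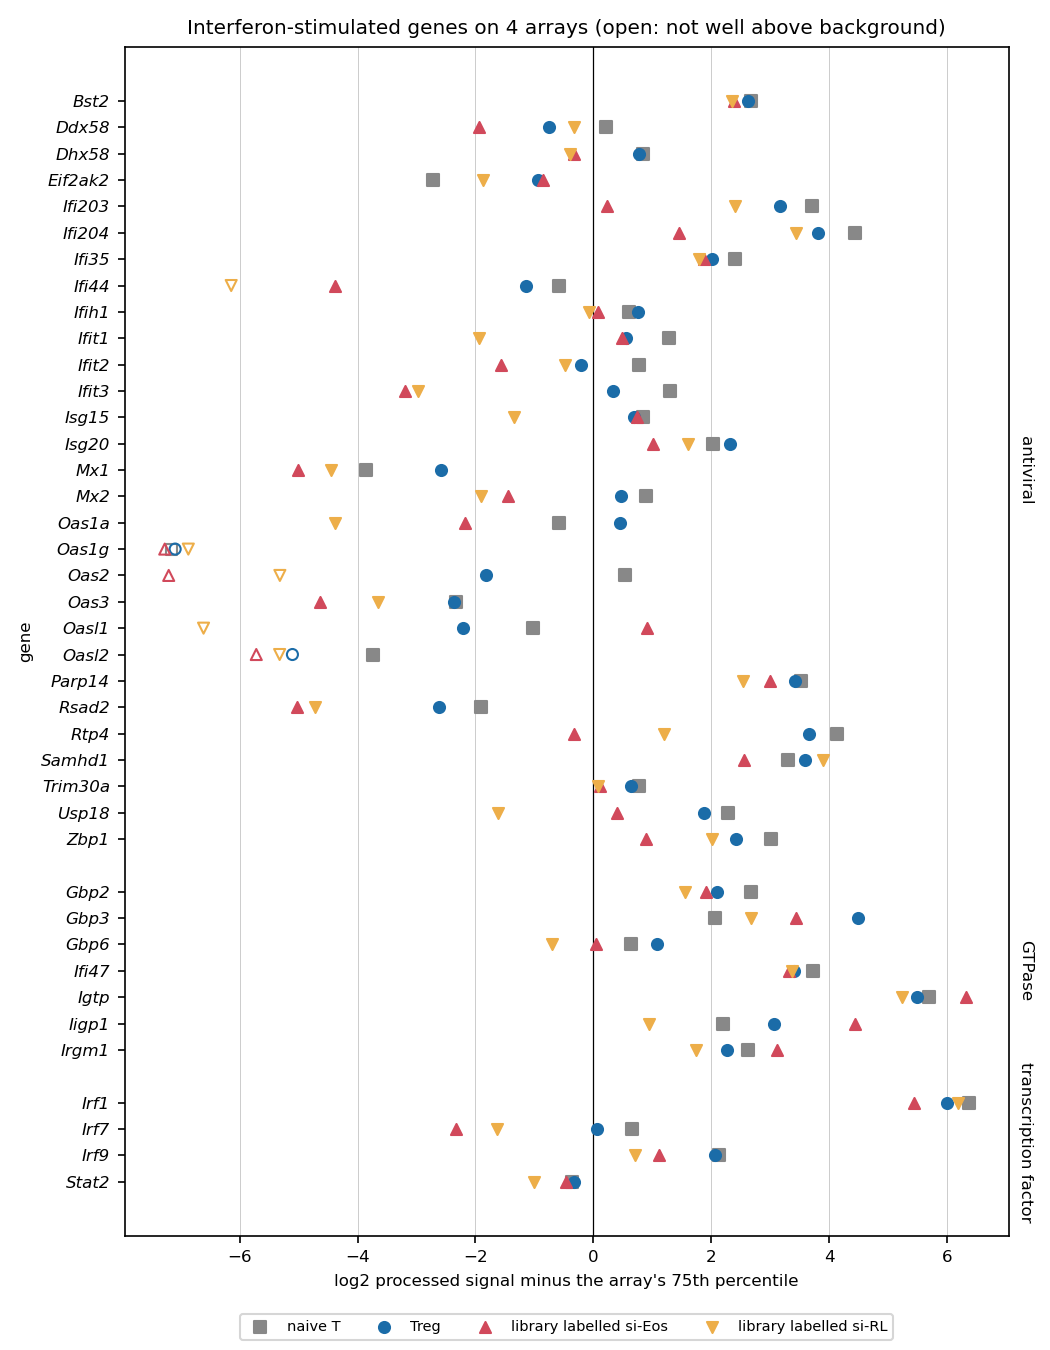
Scaled level (log2 of processed signal minus the array's 75th percentile, x axis) of the 40 interferon-stimulated genes on the array (y axis), grouped by role, with 1 point per array and open points for probes not well above background. Ifit3, Rtp4 and Rsad2 sit lower on both transduced arrays than on both fresh arrays, whereas Iigp1 and Oasl1 are highest in the si-Eos-labelled library.

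Promoters were searched for the elements through which interferons act. RefSeq promoters (GRCm38.p6, 250 bases before to 50 after a start) were found for 30 of the 41 genes. The ISRE core, read as GAAA, any 2 bases and GAAA on either strand, lay in 18 of the 30 (60%), against 3.99% of 27025 genes with a promoter in the table. By role it lay in 13 of 21 antiviral genes, 4 of 5 GTPases and 1 of 4 transcription factors. The GAS pattern TTCNNNGAA, which reads the same on both strands, lay in 9 of 30 (30%) against 9.55% of all. A match of the one overlapped a match of the other in 1 promoter. These genes are defined by their response to interferon, and a match is a description of the letters only.

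The following stretches hold the 160 bases just upstream of a start, 5′ to 3′ on the gene's strand, with ISRE matches in capitals. Ifit1 and Isg15 are shown as antiviral genes that were lower in the si-RL-labelled library than in the si-Eos-labelled library, and Rsad2 as one that was lower than in fresh Treg on both transduced arrays. Bst2 varied little among the arrays. Igtp and Irgm1 are GTPases with a match close to the start. Irf1 is shown for its GAS pattern, the capitals there, in place of an ISRE. GAS matches in Bst2 and Igtp, which began 136 and 45 bases upstream, are not marked. The end of the one in Bst2 is in capitals only because an ISRE match overlaps it. Their positions are chr19:34640729-34640888 (+ strand), chr4:156200819-156200978 (- strand), chr12:26456453-26456612 (- strand), chr8:71537473-71537632 (- strand), chr11:58199396-58199555 (+ strand), chr11:48871421-48871580 (- strand) and chr11:53769854-53770013 (+ strand).
Ifit1: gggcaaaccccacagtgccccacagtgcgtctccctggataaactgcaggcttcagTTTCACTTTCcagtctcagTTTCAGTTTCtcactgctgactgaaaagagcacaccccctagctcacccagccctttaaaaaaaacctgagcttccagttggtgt
Isg15: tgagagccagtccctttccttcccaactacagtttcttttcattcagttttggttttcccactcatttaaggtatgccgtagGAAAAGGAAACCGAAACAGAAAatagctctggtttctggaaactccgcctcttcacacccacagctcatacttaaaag
Rsad2: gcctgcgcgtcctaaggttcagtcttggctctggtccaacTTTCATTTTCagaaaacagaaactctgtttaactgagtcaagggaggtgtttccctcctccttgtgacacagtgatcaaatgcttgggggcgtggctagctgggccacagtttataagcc
Bst2: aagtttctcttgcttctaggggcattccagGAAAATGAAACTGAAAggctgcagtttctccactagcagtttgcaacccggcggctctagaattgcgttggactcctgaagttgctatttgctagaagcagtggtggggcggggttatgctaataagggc
Igtp: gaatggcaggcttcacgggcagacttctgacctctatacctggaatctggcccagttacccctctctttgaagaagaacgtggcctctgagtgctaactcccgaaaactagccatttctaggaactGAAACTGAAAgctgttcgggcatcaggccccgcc
Irgm1: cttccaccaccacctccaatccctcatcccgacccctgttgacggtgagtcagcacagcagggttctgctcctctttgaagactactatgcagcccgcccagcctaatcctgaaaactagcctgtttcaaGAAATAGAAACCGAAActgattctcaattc
Irf1: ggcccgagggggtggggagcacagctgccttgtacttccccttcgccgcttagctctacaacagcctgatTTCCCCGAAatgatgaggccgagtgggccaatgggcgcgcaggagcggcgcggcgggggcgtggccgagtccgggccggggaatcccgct

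The ISRE match nearest to the start began 85 bases upstream in Ifit1, 66 in Isg15, 120 in Rsad2, 124 in Bst2, 34 in Igtp and 24 in Irgm1. The GAS match of Irf1 began 90 bases upstream. Isg15 held 3 overlapping ISRE matches in 1 run, whereas Bst2 and Irgm1 each held 2 that overlap and Ifit1 held 2 that lie apart. Ifit1, Isg15, Rsad2 and Bst2 thus share the element within a short window, while their levels in the transduced libraries differed, as described for each gene with its comparison.

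Fresh Treg were compared with naive T cells to ask which interferon-stimulated genes set the 2 cell types apart. Most differed little. Of 38 measured genes, 4 passed 2-fold with Treg higher (10.5%), against 5.51% of 17593 genes, and 2 passed it with Treg lower (5.26%), against 2.04%. The median log2 difference was -0.34, beside -0.02 over all genes measured. It was -0.41 for 27 antiviral genes, -0.22 for 7 GTPases and -0.22 for 4 transcription factors, so each role sat slightly below the bulk of genes, by less than 2-fold.

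Gbp3, a guanylate-binding protein of the defence against intracellular pathogens, gave signals of 1273, 8784, 3477 and 1677. Treg exceeded naive T cells 5.33-fold in this gene (2.41 ± 0.20), the largest difference among the 38. Its probe lies on chromosome 3, 142510494 to 142510553 (mouse build mm8, as are the probe positions that follow). The other immunity-related and guanylate-binding GTPases among the members did not reach 2-fold, with Gbp2 at -0.58, Gbp6 at 0.44 and Iigp1 at 0.86. The 32 genes within 2-fold lay between -0.99 and 0.86 by their brightest probes. The other probe of Samhd1 lay at 1.17, past 2-fold, beside 0.30 for its brightest.

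Among the antiviral genes, Eif2ak2, the kinase PKR that stops translation on sensing double-stranded RNA, gave 45.8, 204, 177 and 71.4. It was 3.44-fold higher in Treg (1.78 ± 0.22). Mx1, a dynamin-like GTPase, gave only 20.9, 65.7, 9.99 and 12.0, and differed by 1.28 ± 0.24. Both were thus higher in the fresh Treg sample, whereas the oligoadenylate synthetases, which make the activator of RNase L, went both ways. Oas1a gave 202, 535, 71.1 and 12.6 and was higher in Treg by 1.03 ± 0.20. Oas2 gave 437, 111, 2.17 and 6.57 and was lower, at -2.35 ± 0.21, or 5.11-fold. Both genes lie on chromosome 5, where the probe of Oas1a lies at 121158956 to 121159015 and that of Oas2 at 120991042 to 120991101. Oasl1, a family member without synthetase activity that holds back translation of Irf7, gave 149, 84.3, 602 and 2.68 and was lower in Treg at -1.20 ± 0.21. Oasl2 was well above background in naive T cells alone, at 22.8 against 11.4 in Treg, and was at least 2.59-fold lower in Treg.

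The count of lower genes depended on the scaling: it was 5 with arrays scaled to their medians and 1 with scaling to spike-in controls, beside 3 and 5 higher genes. Over all genes measured, 3.56% and 1.17% were then lower, and 4.38% and 8.15% higher. Marker genes of other cells also differed between these samples. The plasma cell gene Jchain gave 7008, 8827, 6.70 and 18.4 and the B cell gene Cd79b 137, 653, 78.6 and 52.3, and their part in the results was not tested.

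Transduced, cultured Treg were then set against fresh Treg. In the si-RL-labelled library, 16 of the 35 measured interferon-stimulated genes (45.7%) were at least 2-fold lower than in Treg, against 8.2% of 17081 genes, and 0 were higher, against 7.89%. In the si-Eos-labelled library, 20 of 37 (54.1%) were lower, against 10.0% of 17897 genes, and 2 were higher, against 8.85%. Both comparisons share the Treg array, so a reading that is high there enters both. The median log2 difference was -0.89 in the si-RL-labelled library and -1.04 in the si-Eos-labelled library, beside -0.01 and 0.06 over all genes measured.

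Genes of each role were among those lower. In the si-RL-labelled library, 11 of 24 antiviral genes (45.8%), 3 of 7 GTPases (42.9%) and 2 of 4 transcription factors (50%) were at least 2-fold lower, with medians of -0.91, -0.55 and -1.02. In the si-Eos-labelled library, 17 of 26 antiviral genes, 2 of 7 GTPases and 1 of 4 transcription factors were lower, with medians of -1.33, -0.08 and -0.75. The 2 higher genes there were 1 antiviral gene, Oasl1, and 1 GTPase, Iigp1. Mx1 and Mx2, which are GTPases too, are counted as antiviral genes. With them among the GTPases, 5 of 9 were lower in the si-RL-labelled library, with a median of -1.79, and 4 of 9 in the si-Eos-labelled library, with a median of -0.19. Differences between roles were not tested.

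**Figure D2:**
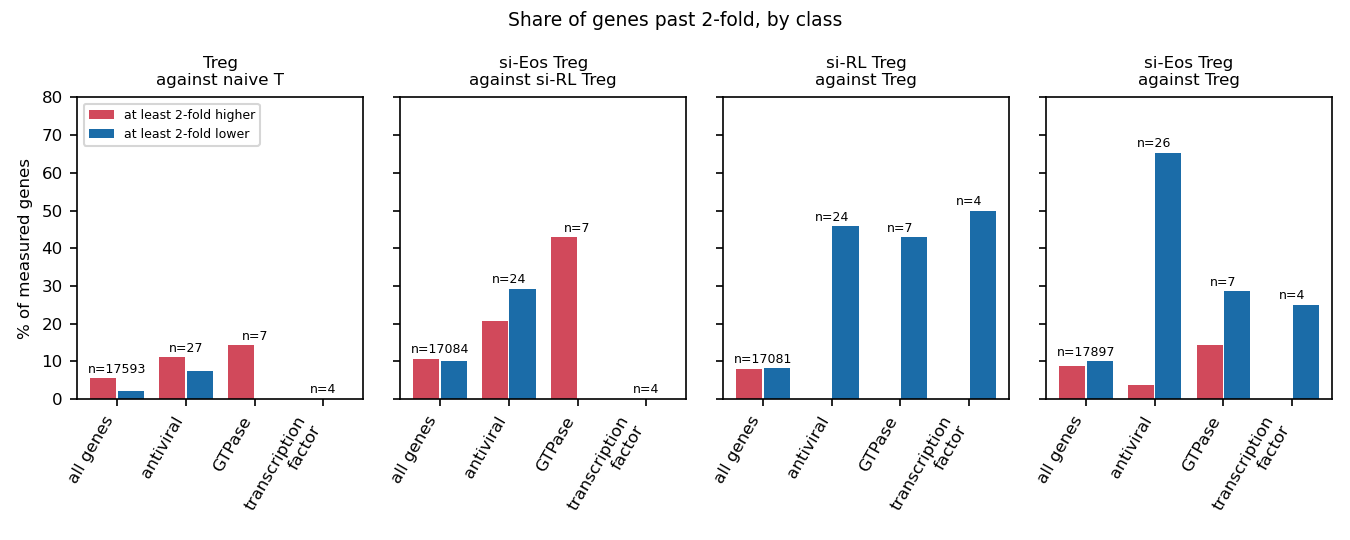
Percent of measured genes at least 2-fold higher (red) or lower (blue) in each of the 4 comparisons, for all genes and for the 3 roles, with the number measured above each pair of bars. In the comparisons with fresh Treg the lower bars of the antiviral genes reach 45.8% and 65.4%, beside 8.2% and 10.0% for all genes.

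The transcription factors showed the lower level in part. Irf7, the factor that amplifies type I interferon production, gave 476, 411, 63.9 and 84.2, with both fresh arrays several times above both transduced ones. Against Treg it was lower, at -1.71 ± 0.21 in the si-RL-labelled library and -2.39 ± 0.21 in the si-Eos-labelled library. Irf9, the DNA-binding partner of Stat2, gave 1325, 1637, 696 and 426, with differences of -1.36 ± 0.20 and -0.94 ± 0.20 in the same order. Stat2 itself gave 235, 312, 231 and 130.5, with -0.68 ± 0.21 and -0.14 ± 0.20, under 2-fold in both. Irf1, which drives both interferon-γ responses and antigen presentation, was bright on every array at 25006, 25165, 13927 and 19157, and differed by 0.19 ± 0.20 and -0.56 ± 0.20. Its second probe differed by 0.95 and 0.07, so the brightest probe and this one disagree in direction for the si-Eos-labelled library.

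Among the antiviral genes, Ifit3, of the family that binds viral RNA and curbs its translation, was at 747, 492, 34.8 and 33.6. It was lower than in Treg, at -3.30 ± 0.22 in the si-RL-labelled library and at -3.53 ± 0.22 in the si-Eos-labelled library, which are 9.82-fold and 11.6-fold. Rtp4, a receptor transporter protein, was at 5301, 4936, 255 and 599, lower, at -2.46 ± 0.20 and -3.98 ± 0.20. Each of these probes read far lower on both transduced arrays than on both fresh arrays. These are 4 different samples and no replicates, and the share of all genes that do so was not counted. Mx2, a relative of Mx1, was at 563, 543, 117 and 69.6, lower, at -2.38 ± 0.21 and -1.92 ± 0.21. Mx1 itself was dim on the transduced arrays and lower, at -1.87 ± 0.31 and -2.43 ± 0.34. Rsad2, the radical enzyme viperin, was at 81.1, 63.9, 9.86 and 9.94, lower, at -2.10 ± 0.34 and -2.40 ± 0.34, near the dimmest level that counts as detected. Its other probes were measured against Treg in the si-RL-labelled library alone, and there 1 of them reached only -0.45.

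**Figure D3:**
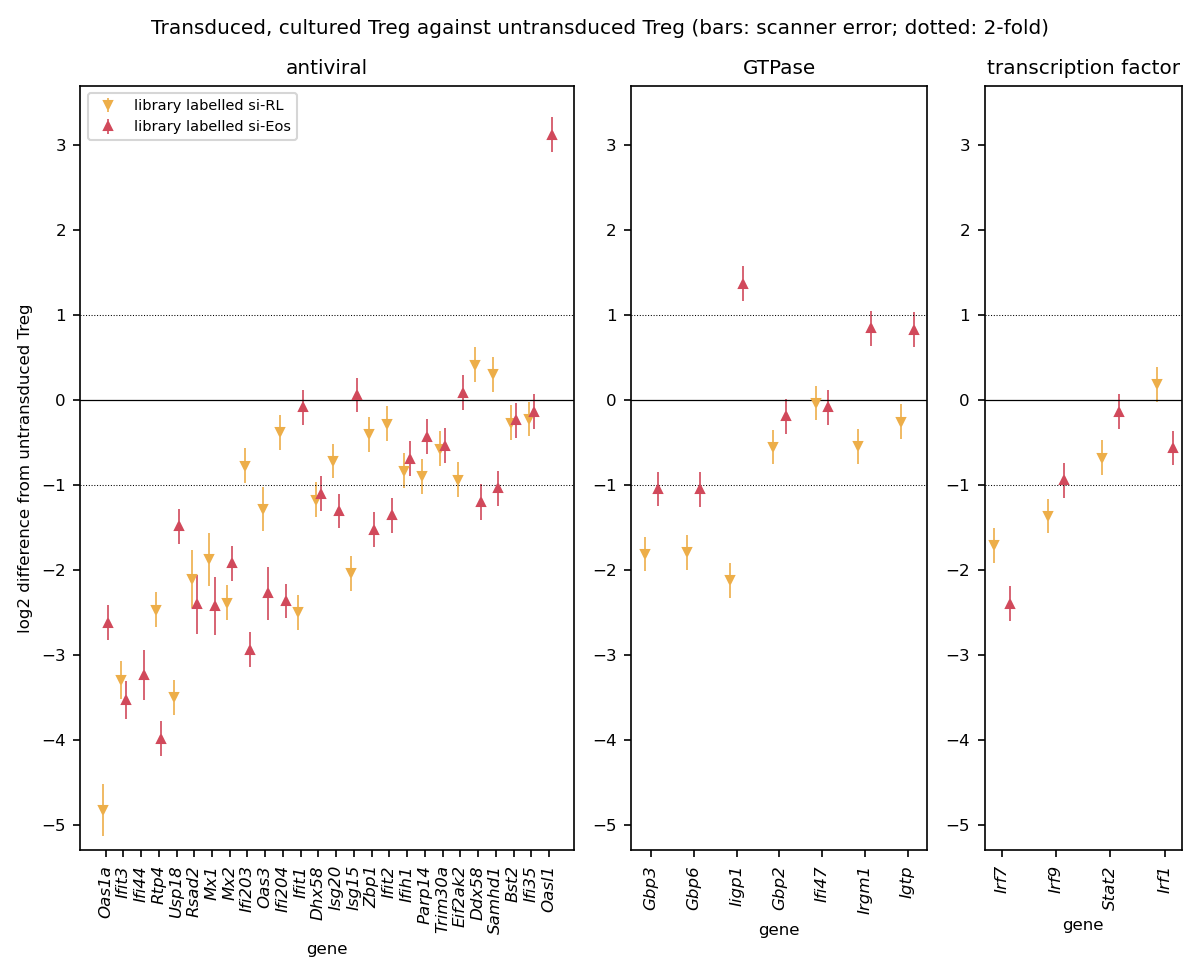
Log2 difference from fresh Treg (y axis) of each interferon-stimulated gene (x axis) measured in at least 1 of the transduced libraries, in 3 panels by role, with bars for the scanner error and dotted lines at 2-fold. Points lie mostly below 0 among antiviral genes, and Oasl1 at 3.13 and Iigp1 at 1.37 are the only ones above the upper dotted line.

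Of the oligoadenylate synthetases, Oas1a, Oas2, Oas3 and Oasl1 could be compared with Treg, whereas Oas1g and Oasl2 were not well above background in Treg or in either transduced library. Oas1a was lower than in Treg, at -4.82 ± 0.31 in the si-RL-labelled library, the largest difference among its 35 genes at 28.3-fold, and at -2.62 ± 0.21 in the si-Eos-labelled library. Oas2 was not well above background in either transduced library, so it was at least 8.15-fold lower in the si-RL-labelled library and at least 9.90-fold lower in the si-Eos-labelled library. Oas3 was lower, at -1.28 ± 0.25 and -2.27 ± 0.31. Oasl1 was at least 6.21-fold lower in the si-RL-labelled library but 8.74-fold higher in the si-Eos-labelled library (3.13 ± 0.21). Oas1a and Oas1g are close paralogs, and whether a probe reads only its named gene was not checked.

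Ifi203 and Ifi204, of the family of pyrin and HIN domain proteins that sense nucleic acids, were low in the si-Eos-labelled library and within 2-fold of Treg in the si-RL-labelled library. Ifi203 was at 3947, 3529.5, 377 and 1385, and Ifi204 was at 6585, 5528, 876 and 2844. Against Treg they were lower, at -2.93 ± 0.20 and -2.36 ± 0.20 in the si-Eos-labelled library. In the si-RL-labelled library the differences were -0.77 ± 0.20 and -0.38 ± 0.20, below the 2-fold mark. The 3 probes of Ifi203 lay between -3.00 and -2.52 in the si-Eos-labelled library, and the 3 of Ifi204 between -3.17 and -2.36. These genes are closely related neighbours on chromosome 1, and whether a probe reads only its named gene was not checked. Ifi44 was at 203, 177, 15.4 and 3.71, lower, at -3.24 ± 0.29 in the si-Eos-labelled library and at least 13.1-fold lower in the si-RL-labelled library, where it was not well above background.

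Ifit1 and Isg15 were low in the si-RL-labelled library and near the fresh level in the si-Eos-labelled library. Ifit1, another member of the RNA-binding Ifit family, was at 739.9, 578, 446 and 68.5, lower than in Treg, at -2.50 ± 0.21 in the si-RL-labelled library and with a difference of -0.08 ± 0.20 in the si-Eos-labelled library. Isg15, a ubiquitin-like modifier, was at 542, 631, 538 and 103, with -2.04 ± 0.21 and 0.06 ± 0.20. Usp18, which removes Isg15 from proteins and dampens the type I receptor, was at 1479, 1441, 421 and 85.4, lower, at -3.50 ± 0.21 and -1.48 ± 0.20, so it was past 2-fold in each. The probe of Isg15 is placed by the array design on chromosome 17, whereas RefSeq places the gene on chromosome 4, and it was taken by its accession.

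The other antiviral genes past 2-fold against Treg were fewer in the si-RL-labelled library than in the si-Eos-labelled library. Dhx58 was at -1.17 and -1.10, in the same order, and so past 2-fold in each. By their brightest probes, Zbp1 (-0.40 and -1.52), Ifit2 (-0.27 and -1.35) and the exonuclease Isg20 (-0.72 and -1.30) passed 2-fold in the si-Eos-labelled library alone. So did Ddx58 (0.42 and -1.20) and Samhd1 (0.30 and -1.04), without a test of that difference. The other probe of Ifit2 gave 0.49 and -0.96, within 2-fold in each. Other probes of Ddx58 lay as low as -1.53 in the si-RL-labelled library. By their brightest probes, Ifih1, Bst2, Ifi35, Trim30a, Parp14 and Eif2ak2 stayed within 2-fold of Treg on both arrays, between -0.94 and 0.09. The other probe of Ifih1 lay at -1.35 in the si-RL-labelled library, past 2-fold, and at -0.70 in the si-Eos-labelled library.

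The GTPases differed from one another. Gbp3 and Gbp6, both guanylate-binding proteins, were lower than in Treg, at -1.81 ± 0.20 and -1.79 ± 0.20 in the si-RL-labelled library, and at -1.04 ± 0.20 and -1.05 ± 0.20 in the si-Eos-labelled library. Gbp6 was read through the accession of a probe that the array files name Mpa2l. The probe they name Gbp6 carries an accession of Gbp7, and it gave -0.88 in the si-RL-labelled library and -1.24 in the si-Eos-labelled library against Treg, and -0.36 in the si-Eos-labelled library against the si-RL-labelled library. Iigp1, a GTPase that disrupts the vacuoles of intracellular parasites, was at 1397, 3284, 6951 and 505. It was lower, at -2.12 ± 0.20 in the si-RL-labelled library and higher by 1.37 ± 0.20 in the si-Eos-labelled library. The remaining 4, Ifi47, Igtp, Irgm1 and Gbp2, were within 2-fold of Treg in both libraries.

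The counts and the distance from all genes moved with the background correction. In the si-Eos-labelled library, 12 genes were lower with normexp and quantile normalization and 13 with normexp and 75th percentile scaling, and in the si-RL-labelled library 11 and 14. With normexp and quantile normalization, 3.14% of all measured genes were 2-fold lower than in Treg in the si-RL-labelled library and 4.19% in the si-Eos-labelled library. With normexp and 75th percentile scaling these shares were 26.2% and 32.9%. The members' median relative to that of all genes was then -0.26 in the si-RL-labelled library and -0.096 in the si-Eos-labelled library, beside -0.89 and -1.10 with the main scaling. In bulk samples, fewer cells that express a gene and less RNA per cell cannot be told apart.

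The 2 transduced libraries were finally compared with each other, to ask what differed between cells cultured alike. The interferon-stimulated genes lay on both sides. Of 35 measured genes, 8 passed 2-fold with the si-Eos-labelled library higher (22.9%), against 10.7% of 17084 genes, and 7 passed it with that library lower (20%), against 10.1%. The median was 0.07, beside 0.04 over all genes measured. All signs here hold for the libraries as labelled.

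By role the GTPases among the members lay on the high side: 3 of 7 were at least 2-fold higher in the si-Eos-labelled library and 0 lower, with a median of 0.76. With Mx1 and Mx2 among them, 3 of 9 were higher and 0 lower, with a median of 0.74. Related GTPases outside the members lay on both sides by their brightest probes. Gbp5, Irgm2 and Tgtp1 were at 1.09, 0.90 and 0.67, and Gbp7 and Gbp4 at -0.36 and -1.47. Of 24 antiviral genes, 5 were higher and 7 lower, with a median of -0.10. Of the 4 transcription factors 0 passed 2-fold, with Irf1 at -0.75 ± 0.20, Irf7 at -0.69 ± 0.21, Irf9 at 0.42 ± 0.20 and Stat2 at 0.54 ± 0.21.

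Iigp1 showed the largest measured difference, 3.50 ± 0.20 or 11.3-fold, from 505 in the si-RL-labelled library to 6951 in the si-Eos-labelled library. Irgm1, a GTPase that guards the cell's own membranes from the others, was at 1867, 1896, 2783 and 872 and differed by 1.39 ± 0.20. Igtp, which belongs to the same regulatory group, was at 15769, 17546, 25498 and 9859 and differed by 1.08 ± 0.20. The other GTPases among the members stayed under 2-fold. Ifi47, also an immunity-related GTPase, was at -0.05, and the guanylate-binding Gbp2, Gbp3 and Gbp6 were at 0.36, 0.76 and 0.74.

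Of the antiviral genes, Ifit1 was higher in the si-Eos-labelled library by 2.42 ± 0.21, Oas1a by 2.21 ± 0.31, Isg15 by 2.10 ± 0.21, Usp18 by 2.01 ± 0.21 and Eif2ak2 by 1.02 ± 0.21. Oasl1 was well above background only in the si-Eos-labelled library, at 602 against 2.68, which is at least 54.3-fold higher. Ifi44 was also detected only there, and was at least 1.39-fold higher. Oasl1 and Ifi44 have 1 array each behind these bounds, and neither could be given a measured difference.

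**Figure D4:**
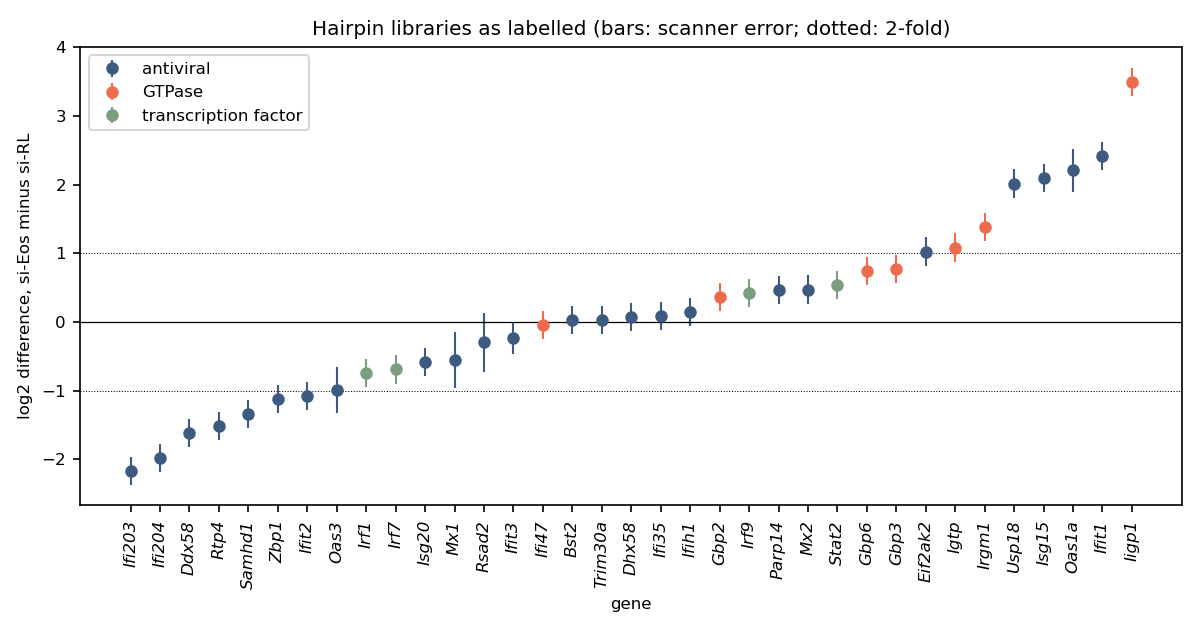
Log2 difference, si-Eos-labelled minus si-RL-labelled library (y axis), for the 35 interferon-stimulated genes measured on both arrays (x axis, sorted), coloured by role, with bars for the scanner error and dotted lines at 2-fold. Both ends are filled: 8 points lie at or above the upper line, led by Iigp1 at 3.50, and 7 at or below the lower one, led by Ifi203 at -2.16.

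There were 7 genes lower in the si-Eos-labelled library, each of them antiviral. Ifi203 was lower, at -2.16 ± 0.20 and Ifi204 at -1.99 ± 0.20. Ddx58, the RNA helicase RIG-I, was at 351, 234, 83.1 and 209, lower, at -1.62 ± 0.21, and its 3 other probes lay between -1.57 and -1.77. Zbp1, which senses left-handed nucleic acids and can start cell death, was at 2440.0, 2089, 594 and 1058, lower, at -1.12 ± 0.20. Samhd1, which depletes the nucleotides that viruses need for reverse transcription, was at 2989, 4752, 1892 and 3927, lower, at -1.34 ± 0.20. Rtp4 was at -1.52 ± 0.20 and Ifit2 at -1.08 ± 0.21.

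The Ifit family, whose probes lie within a short stretch of chromosome 19, did not vary together. The probe of Ifit2 lies at 34641751 to 34641810, that of Ifit3 at 34654612 to 34654671 and that of Ifit1 at 34715303 to 34715362. Ifit1 was near its fresh level in the si-Eos-labelled library and low in the si-RL-labelled library, at 446 and 68.5. Ifit3 was low in both, at 34.8 and 33.6, and did not differ between them beyond its error (-0.23 ± 0.24). Ifit2, at 521, 339.8, 109 and 188, was lower in the si-Eos-labelled library than in the si-RL-labelled library.

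The remaining genes differed by less than 2-fold between the transduced libraries. Bst2 (tetherin), Ifi35, Trim30a, Ifih1 and Dhx58, the last a partner of the RNA sensors, lay between 0.03 and 0.14 by their brightest probes. The other probe of Ifih1 lay at 0.65. Parp14 and Mx2 lay at 0.46 and 0.47. The exonuclease Isg20 (-0.59), Mx1 (-0.55), Rsad2 (-0.30) and Oas3 (-0.99) lay below 0, and for Mx1, Rsad2 and Oas3 the scanner error was between 0.34 and 0.43. Oas1g, Oas2 and Oasl2 were not well above background on either array.

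Treg against naive T and the si-Eos-labelled library against the si-RL-labelled library share no array. Across the 35 genes measured in both, the differences of the 2 comparisons had a Pearson correlation of 0.352 and a Spearman correlation of 0.394, beside 0.38 and 0.236 over 16447 genes. Genes are not independent replicates, and these values only describe 4 arrays. Gbp3, Eif2ak2, Oas1a and Iigp1 were above 0 in both comparisons, whereas Oasl1 was lower in Treg and higher in the si-Eos-labelled library.

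Other genes of the interferon pathway were read from a list of 101 outside the 41, of which 96 were on the array. The list holds ligands, receptors, kinases and regulators, and also 42 further interferon-induced genes and 17 of antigen processing and chemokines. Between fresh Treg and naive T cells, 10 of 86 measured passed 2-fold with Treg higher and 0 with Treg lower. In the si-Eos-labelled library against the si-RL-labelled library, 15 of 84 were higher and 9 lower. Against fresh Treg, 5 of 85 were higher and 20 lower in the si-RL-labelled library, and 9 of 86 were higher and 14 lower in the si-Eos-labelled library. As shares these are 11.6% and 0%, 17.9% and 10.7%, 5.88% and 23.5%, and 10.5% and 16.3%, to be read beside the shares of all genes given with each comparison.

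Ifng, interferon-γ, was at 439, 4125, 3941 and 117. Its level in Treg lay 2.86 ± 0.20 above naive T, and it was higher in the si-Eos-labelled library than in the si-RL-labelled library by 4.78 ± 0.21. Against Treg it was lower, at -4.56 ± 0.21 in the si-RL-labelled library and differed by 0.23 ± 0.20 in the si-Eos-labelled library. The ligands that signal through Ifnar1 and Ifnar2 were near the floor: Ifnb1, Ifna2, Ifna4, Ifnk and Ifne were well above background on no array. Ifna1 and the type III ligand Ifnl3 were detected but dim, at 27.9, 52.5, 44.5 and 26.4 and at 25.3, 24.2, 24.1 and 20.3.

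The receptor chains differed less. Ifnar1 was at 1089, 1725, 1021 and 1273 and Ifnar2 at 429, 822, 487 and 439.8, with every difference within 2-fold. Ifngr1, the binding chain for interferon-γ, was at 9072, 13418, 16799 and 16963, also within 2-fold throughout. Ifngr2, the signalling chain, was at 1325, 982, 642 and 1467, lower in the si-Eos-labelled library than in the si-RL-labelled library at -1.48 ± 0.20, and in the si-RL-labelled library higher than in Treg by 1.16 ± 0.20.

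Among inhibitors, Socs1, which blocks the receptor kinases, was at 1627, 4014, 9501 and 5864, higher than in Treg by 1.13 ± 0.20 in the si-RL-labelled library and 1.54 ± 0.20 in the si-Eos-labelled library. Socs3 was at 4384, 6574, 4054 and 2241, within 2-fold throughout. Pias1, an inhibitor of STAT signalling, was at 817, 723, 594 and 1188, and Tbk1, the kinase that activates Irf3, at 1804, 2177, 1538 and 3523. By their brightest probes both were higher in the si-RL-labelled library than in Treg, by 1.30 ± 0.20 and 1.27 ± 0.20, and Tbk1 was lower in the si-Eos-labelled library than in the si-RL-labelled library at -1.48 ± 0.20. Their other probes did not bear this out at 2-fold. The other probe of Pias1 lay at 0.44 in the si-RL-labelled library against Treg, and that of Tbk1 at -0.27 there and at -0.19 in the si-Eos-labelled library against the si-RL-labelled library.

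**Figure D5:**
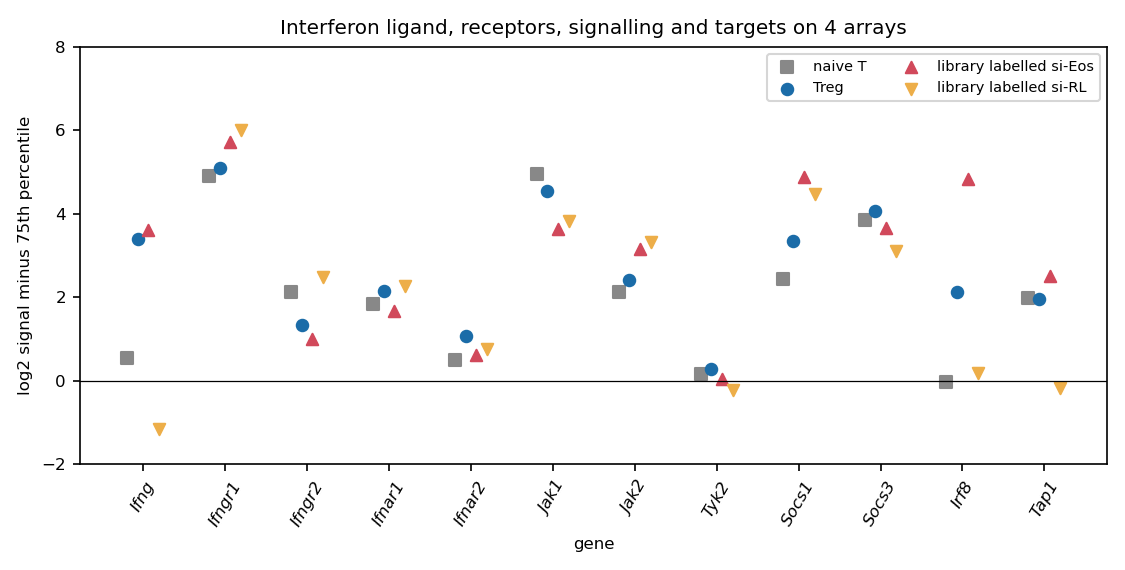
Scaled level (log2 of processed signal minus the array's 75th percentile, y axis) of 12 genes of the interferon pathway (x axis) on the 4 arrays. Ifng, Irf8 and Tap1 are lower in the si-RL-labelled library than in Treg, while the receptor chains Ifnar1, Ifnar2 and Ifngr1 sit close together.

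Other interferon regulatory factors showed larger differences. Irf8 was at 296, 1721, 9095 and 296, higher in the si-Eos-labelled library than in the si-RL-labelled library by 4.66 ± 0.20 and higher than in Treg by 2.69 ± 0.20. Irf4, a factor of activated T cells, was at 74.6, 325, 1214 and 226, and higher in the si-Eos-labelled library than in Treg by 2.19 ± 0.20. Irf5 was at 33.5, 231, 457 and 136, above the naive T level in Treg by 2.41 ± 0.22. Of the 5 other factors, 3 were at least 2-fold higher in Treg than in the naive T sample, and 3 higher and 1 lower in the si-Eos-labelled library than in the si-RL-labelled library.

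Further interferon-induced genes lay on both sides as well. Tap1, the peptide transporter of antigen presentation, was at 1201, 1519, 1806 and 232, higher in the si-Eos-labelled library than in the si-RL-labelled library by 2.67 ± 0.20 and lower in the si-RL-labelled library than in Treg at -2.13 ± 0.20. Ifi205, of the Ifi203 and Ifi204 family, was at 8079, 7881, 706 and 3567, lower in the si-Eos-labelled library than in the si-RL-labelled library at -2.62 ± 0.20 and than in Treg at -3.19 ± 0.20. Rnf213 was at 4159.7, 3585, 636 and 1026, lower in the si-Eos-labelled library than in Treg at -2.20 ± 0.20. Tlr7, a sensor of RNA in endosomes, was at 61.9, 329, 36.3 and 60.9 and lower there at -2.89 ± 0.22. Against these, Ly6e was at 579, 1464, 4559 and 6398, higher than in Treg by 2.71 ± 0.20 in the si-RL-labelled library and by 1.93 ± 0.20 in the si-Eos-labelled library. The chemokine gene Cxcl10 was at 29.0, 364, 175 and 162, above the naive T level in Treg by 3.28 ± 0.24. Of 38 other interferon-induced genes on the array, 12 of 37 measured were lower and 1 higher in the si-RL-labelled library than in Treg, and 11 of 37 lower and 2 higher in the si-Eos-labelled library.

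Markers of T cells and of other cell types were read on the same arrays. T cell markers were all well above background on every array, with summed signals of 87636, 99037, 73758 and 40809. Treg markers summed to 8213, 53781, 99625 and 31322 and naive T cell markers to 49732, 22942, 14629 and 35555. Of the Treg sum in the si-RL-labelled library, Tnfrsf18 alone gave 28592. Ikzf2 was at 387, 11525, 7341 and 498, Ctla4 at 444, 7222, 6778 and 991, and Il2ra at 23.6, 1228, 6971.5 and 1130. Against Treg, 3 of 5 Treg markers were at least 2-fold lower in that library and 0 higher. Of 5 naive T cell markers, 3 were higher there and 0 lower. Their part in the comparisons was not tested. B cell markers were detected in 5, 5, 6 and 5 of 7 genes and summed to 479, 1096, 454 and 306. Plasma cell markers were detected in 4, 4, 2 and 3 of 4 and summed to 7141, 9155, 489.5 and 102. The higher sums of the fresh samples came mostly from Jchain. Tnfrsf17 was also brighter there, at 46.3, 75.6, 2.92 and 3.23. Sdc1 was at 33.6, 63.5, 37.9 and 14.2, and Prdm1 at 53.8, 189, 442 and 66.5, brightest in the si-Eos-labelled library.

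Markers of dendritic cells, which include the plasmacytoid cells that make most type I interferon, were detected in 6 of 7 genes on every array and summed to 1809.6, 2678, 1091 and 483. The largest part was Tcf4, at 978, 1561, 273 and 42.5 by its brightest probe. That probe was lower than in Treg, at -4.62 ± 0.21 in the si-RL-labelled library and -2.22 ± 0.20 in the si-Eos-labelled library, whereas its 2 other probes went the opposite way, between 0.56 and 0.68 and between 0.65 and 1.66. Siglech, which marks plasmacytoid cells, was well above background on no array. Myeloid markers were detected in 6, 6, 4 and 4 of 8 by each gene's brightest probe and summed to 428, 409, 425 and 418. The brightest probe of Lyz2 was not well above background in the transduced libraries, whereas its other probe was measured there and lay 0.14 and 0.56 above Treg in the si-RL-labelled library and the si-Eos-labelled library. Markers of CD8 T and NK cells summed to 1978, 3425, 17255 and 1049, with Nkg7 at 233, 2075, 16147 and 256. Of 4 erythroid and platelet markers, 0, 1, 2 and 1 were detected. The part of these cells in the differences of the interferon-stimulated genes was not tested.

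Probes of the same interferon-stimulated gene were compared where more than 1 was measured. Of the called differences, 6 of 15 between the transduced libraries, 2 of 16 in the si-RL-labelled library against Treg and 6 of 22 in the si-Eos-labelled library against Treg had another measured probe, and in 0 of them did a probe go the opposite way. None of the 6 calls of Treg against naive T cells had one. Below 2-fold, the 4 probes of Ddx58 gave 0.42 for the brightest and between -1.53 and -0.18 for the others in the si-RL-labelled library against Treg.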

How the data were processed

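RNA of 4 samples was amplified linearly and hybridised in 1 colour (Cy3), per the labels' protocols. The deposited intensity values came from Agilent Feature Extraction 9.5.3.1 and were background-subtracted without scaling between arrays, per the file headers (build mm8). The deposited series table repeated them (median ratio 1, 100% within 0.5%).

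Flagged spots were left out (71 to 94 of 43379 per array), spots of a probe were averaged as log2, and each array's 75th percentile over 41174 probes was subtracted. Names came from an accession (24375 probes), a symbol (6301), a synonym (2426) or the file (8072), through RefSeq of GRCm38.p6. With 1 array per group no test was run. Bounds set the bright level against the higher of the dim array's lowest detected level and the dim probe's own. Values on every array are given for the transcription factors, for genes detected on 1 array of a comparison and for up to 6 past 2-fold each way per comparison (pathway list: Ifng, receptors, Socs1, Socs3 and up to 3 each way). Ifit2, Gbp6, Gbp2, Ifna1 and Ifnl3, the cell markers and other probes were added to these. One gene of the pathway list is counted there and its values are not reported here. Members, lists and rules were chosen with earlier results of these data known. Counting was tested on simulated data. Alternatives changed the scaling, background correction (normexp, offset 50, limma 3.58.1, R 4.3.3), dim-probe filter, probe choice, naming and fold. Python 3.11.15 and pandas 2.3.3 were used.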

Additional observations from a re-analysis of the deposited data

Results flagged for a closer look

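Iigp1, a GTPase of the defence against intracellular parasites, differed from fresh Treg in opposite directions in the transduced libraries. Its log2 difference from Treg was 1.37 in the si-Eos-labelled library and -2.12 in the si-RL-labelled library. It was the only member measured on all 3 arrays that was past 2-fold on opposite sides. Both values share the Treg array, each rests on 1 array and 1 probe, and the difference between them was not tested.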

How the results depend on the processing

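No paired analysis was possible because each group was 1 array. Of 59 member differences past 2-fold, 0 of 527 values under other settings had the opposite sign. These differences were picked for their size, and several settings shift all genes alike or reuse the same probe values. A change of sign was hardly possible under those settings, so the count is no support for the differences.

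Counts of members moved as follows. At 3-fold in place of 2-fold, Treg against naive T had 2 higher and 1 lower, the libraries labelled si-Eos against si-RL 5 higher and 3 lower, and si-Eos against Treg 1 higher and 11 lower. These were out of 38, 35 and 37 measured members. The shares of all genes were 3.09% and 0.637%, 4.05% and 3.55%, and 3.46% and 4.79%, in the same order. With normexp and quantile normalization, Treg against naive T had 1 higher and 1 lower, si-Eos against si-RL 5 higher, and si-Eos against Treg 12 lower. The matching shares of all genes were 1.76% and 0.688%, 3.79%, and 4.19%. With normexp and 75th percentile scaling, chosen after seeing the data, Treg against naive T had 0 lower and si-Eos against Treg 4 higher and 13 lower. The matching shares of all genes were 2.1%, and 8.1% and 32.9%. Treg against naive T had 5 lower with scaling to the median and 1 with spike-in scaling, beside 3.56% and 1.17% of all genes. The count of members lower in si-RL than in Treg lay between 11 and 22. The 11 came with normexp and quantile normalization, beside 3.14% of all genes, and the 22 with spike-in scaling, beside 17.4%.

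Spike-in scaling moved the median of all genes to 0.25 for Treg against naive T, -0.39 for si-RL against Treg and -0.31 for si-Eos against Treg, and scaling to the median moved it to -0.23 for Treg against naive T. These scalings shift all genes of an array alike. The members' medians relative to all genes, -0.89 for si-RL and -1.10 for si-Eos against Treg, moved to -0.52 and -0.60 with normexp and quantile normalization and to -0.26 and -0.096 with normexp and 75th percentile scaling. Genes with signals near 10, such as Mx1 and Rsad2 in the transduced libraries, lie close to the lowest level counted as detected, and the causes of these shifts were not tested.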
